A study of Homo sapiens with 6 samples.

Results

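Matrix metalloproteinases (MMPs) and their tissue inhibitors (TIMPs) were followed as 10 genes, 7 MMPs (MMP1, MMP2, MMP3, MMP9, MMP10, MMP13 and MMP14) and 3 TIMPs (TIMP1, TIMP2 and TIMP3), out of 58735 genes in the deposited tables. They were matched by the exact gene name. The genes were chosen by family, with the deposited counts and FPKM of SCH against vehicle already known, so their values for that comparison are given as a description, without a p-value, and the calls of the members are counted once beside those of all genes. RNA was sequenced from MDA-MB-231 cells, an established human cell line of triple-negative breast cancer, labelled wild type. Of the 6 samples, 3 had been kept with vehicle for 24 h and 3 for 24 h with *Salvia chinensis* Benth (SCH, an extract of the herb boiled in water, per the study's methods) at 100 mg/l. The labels give RPMI-1640 with fetal bovine serum as the medium for both groups, whereas the methods give DMEM for this line, and what the vehicle was is not given in the sources used here. The design covers 1 cell line at 1 dose and 1 time. The total counts on genes were 20291379, 18714240 and 18334857 after vehicle and 16836369, 17979434 and 18414924 after SCH.

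MMPs are zinc-dependent endopeptidases that are made as inactive proenzymes and together cleave most proteins of the extracellular matrix. TIMPs bind the active site of an MMP and block it, and TIMP2 also takes part in the activation of proMMP2 by MMP14 at the cell surface. In breast cancer the balance between both families has been studied for its part in invasion through the basement membrane.

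The labelled cell line was compared with its usual markers. The estrogen receptor gene ESR1 had 4, 4 and 4 counts after vehicle and 1, 3 and 3 after SCH. The progesterone receptor gene PGR had 1 count in all 6 samples together. ERBB2 had 6.76, 6.81 and 6.44 FPKM after vehicle and 8.86, 7.95 and 7.84 after SCH. FPKM are fragments per kilobase of gene, scaled by a factor of each library, a level that can be compared between genes. The mesenchymal gene VIM had 261, 269 and 261 FPKM after vehicle and 177, 184 and 179 after SCH, and the epithelial cadherin gene CDH1 had at most 6 counts in a sample. Other epithelial genes were present. KRT18, a keratin, had 131, 133 and 124 FPKM after vehicle and 76.8, 72.1 and 74.7 after SCH, and EPCAM had 6.83, 5.99 and 6.77 and 4.72, 4.20 and 4.85. VIM, KRT18 and EPCAM fell (log2 fold changes -0.56, -0.80 and -0.52 with edgeR), ERBB2 rose (0.29), and CD44 was not past the threshold (0.03). Of 6 markers of immune cells, endothelium and fibroblasts (PTPRC, CD68, PECAM1, CDH5, LUM and PDGFRB), between 3 and 5 had any count in a sample, and together they had 82, 93 and 73 counts after vehicle and 43, 59 and 56 after SCH. The most abundant of them by FPKM was PTPRC in each vehicle-treated sample, with 39, 37 and 34 counts, against 4, 9 and 3 after SCH. The endothelial cadherin gene CDH5 had no count in 5 of the 6 samples. The part of these cell markers in the results below was not tested. In these bulk samples, fewer cells of a kind and less RNA per cell cannot be told apart. Mitochondrial genes held 3.40% to 3.55% of the counts after vehicle and, after SCH, 3.42% and 3.53% in replicates 2 and 3 and less in replicate 1.

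Under vehicle, the 10 genes fell into 5 with a clear level and 5 close to none. MMP14, a membrane-anchored collagenase, had the highest level of the 10, with 109.5 ± 3.91 FPKM (SD, n = 3), above 97.5% of all genes tested. TIMP1 followed with 71.9 ± 1.04 FPKM, and then TIMP2 with 35.1 ± 1.11 and TIMP3 with 34.3 ± 0.930, whose samples overlapped. MMP1, a secreted collagenase of fibrillar collagen, had 24.3 ± 0.512 FPKM. The remaining 5 (MMP2, MMP3, MMP9, MMP10 and MMP13) had at most 11 counts in any of the 6 samples, and together at most 0.749 FPKM in a sample. The gelatinases MMP2 and MMP9, which cleave the type IV collagen of basement membranes, were both among these 5.

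After SCH, the order of the clear members was MMP14 with 132 ± 7.74 FPKM (SD, n = 3), TIMP1 with 124 ± 6.07, MMP1 with 96.9 ± 1.74, TIMP2 with 37.5 ± 1.38 and TIMP3 with 22.2 ± 0.897. MMP14 and TIMP1 overlapped between samples, and the other neighbours in this order did not. MMP1 stood below TIMP2 and TIMP3 in each vehicle-treated sample and above both in each SCH-treated sample. The plot of the transcripts in each sample gives the levels of the 5 clear members and the counts of the 5 low ones.

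**Figure D1:**
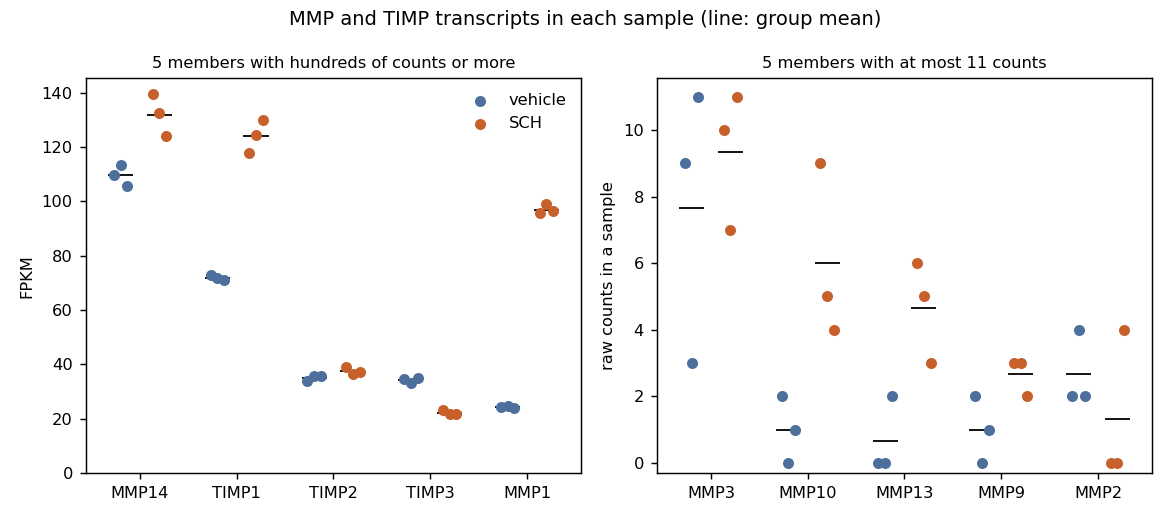
Left, FPKM of 5 members in the 3 vehicle-treated and the 3 SCH-treated samples. Right, raw counts of the other 5 members, with at most 11 in a sample. Points are samples and lines are group means. MMP1 goes from a mean of 24.3 to 96.9 FPKM, and TIMP3 is the clear member that is lower after SCH.

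MMP1 (ENSG00000196611), on chromosome 11 of GRCh38 from 102789920 to 102798160, showed the largest difference among the members that passed the filter on low counts. Its normalised CPM (counts scaled to library size after TMM normalization, a level for comparing samples) was 49.7, 50.5 and 48.5 after vehicle and 193, 201 and 196 after SCH. The 2 groups lay far apart, with 969, 906 and 862 counts against 3369, 3738 and 3730. The log2 fold change was 1.99 (standard error, SE, 0.05), that is 3.97-fold higher, and 1.95 to 2.09 over the alternatives. Of the 14736 genes tested, 67 (0.455%) had a log2 fold change at least as large. The exons of MMP1 share 7.61% of their bases with those of WTAPP1, a pseudogene on the other strand within which MMP1 lies. The library kit named in the methods does not mark strand, but WTAPP1 itself had only 4 counts after vehicle and 13 after SCH, over 3 samples each.

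TIMP1 (ENSG00000102265), on chromosome X from 47582313 to 47586789, encodes a secreted inhibitor of most MMPs. Its normalised CPM was 116, 115 and 113 after vehicle and 186, 197 and 207 after SCH. Every SCH-treated sample was above every vehicle-treated sample, and the log2 fold change was 0.78 (SE 0.05), a 1.72-fold higher level. TIMP3 (ENSG00000100234), on chromosome 22 from 32801701 to 32863043, encodes the inhibitor that is bound to the extracellular matrix and also blocks ADAM proteases such as ADAM17. It was the only one of the 10 whose SCH-treated samples all lay below the vehicle-treated samples. Its normalised CPM was 164, 158 and 167 after vehicle and 110, 103 and 103 after SCH, with a log2 fold change of -0.64 (SE 0.05), or 0.643 of the vehicle level. TIMP1 lies inside the gene SYN1 and TIMP3 inside SYN3, each on the strand opposite to that of its host, and neither shared an exonic base with it. SYN1 had 1 count and SYN3 had 1 count in all 6 samples together.

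TIMP2 (ENSG00000035862), on chromosome 17 from 78852977 to 78925387, differed least among the clear members. Its normalised CPM was 197, 208 and 208 after vehicle and 226, 211 and 217 after SCH. The groups came close, with 208 and 211 as the nearest samples, and the log2 fold change was 0.09 (SE 0.05), which became 0.19 with library size alone as the scaling and 0.06 with upper quartile scaling. Exons of other genes cover 10.0% of its exonic bases, and these genes had at most 9 counts over the 3 samples of a group. MMP14 (ENSG00000157227), on chromosome 14 from 22836557 to 22849027, had a normalised CPM of 507, 523 and 487 after vehicle and 638, 610 and 572 after SCH. The groups were apart here too, 523 being the highest value after vehicle and 572 the lowest after SCH, with a log2 fold change of 0.26 (SE 0.05), a 1.20-fold higher level.

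Among the 5 members with few counts, the stromelysin MMP3 (ENSG00000149968) had 9, 3 and 11 counts after vehicle and 10, 7 and 11 after SCH. These groups overlapped, with a log2 fold change of 0.28 (SE 0.48), which ran from -0.08 without vehicle replicate 2 to 0.66 without vehicle replicate 3. MMP10 (ENSG00000166670), a second stromelysin, had 2, 0 and 1 counts after vehicle and 9, 5 and 4 after SCH, a ratio of 6.02 (95% interval 1.76 to 31.9, exact binomial method). The collagenase MMP13 (ENSG00000137745) had 0, 0 and 2 counts after vehicle and 6, 5 and 3 after SCH, a ratio of 7.02 (95% interval 1.61 to 63.6). In both genes all SCH-treated samples were above all vehicle-treated samples, though only by 1 or 2 counts at the closest, and the intervals cover counting error only. MMP9 (ENSG00000100985) had 2, 0 and 1 counts after vehicle and 3, 3 and 2 after SCH, and MMP2 (ENSG00000087245) had 2, 4 and 2 after vehicle and 0, 0 and 4 after SCH. Both groups averaged under a floor of 3 counts in these 2 genes, so no fold was computed. A difference was not detectable at this depth, where 3 counts are 0.148 to 0.178 CPM of the total counts, without TMM normalization. An antisense transcript of SLC12A5 overlaps 18.4% of the exonic bases of MMP9, and had 5 counts after vehicle and 7 after SCH.

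Of the 10 genes, 6 passed edgeR's filter on low counts (MMP1, MMP3, MMP14 and the 3 TIMPs). Of these, 3 were past the threshold as higher and 1 as lower, and 2 were not past it, where 58.7% of the 14736 genes tested were past it, 29.3% as raised and 29.4% as lowered (edgeR's quasi-likelihood test, adjusted p under 0.05). The groups did not overlap in 5 of the 6, 4 of them with SCH higher and 1 with SCH lower, and in 62.4% of all genes tested (31.1% with SCH higher and 31.3% with SCH lower). A log2 fold change of 1 or more in size, together with the adjusted p, was met by 1 of the 6 (MMP1) and by 8.77% of all genes tested. Since the members were named with this comparison in view, nothing is read from these counts.

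Summed over the members on the scale of FPKM, MMP and TIMP transcripts were about level after vehicle, and MMP transcript exceeded TIMP transcript in each sample after SCH. The 7 MMPs summed to 135, 138 and 130 FPKM after vehicle and to 236, 232 and 221 after SCH. The 3 TIMPs summed to 141, 141 and 142 FPKM after vehicle and to 180, 182 and 189 after SCH. The ratio of TIMP to MMP transcript was thereby 1.05, 1.02 and 1.09 after vehicle and 0.764, 0.786 and 0.856 after SCH, and the groups did not overlap. These sums count transcripts, not enzyme, and say nothing of secretion, activation or inhibition.

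The composition of each sum also differed. MMP1 was 18.1% ± 0.199 (SD, n = 3) of the MMP sum after vehicle and 42.3% ± 1.57 after SCH, and MMP14 was 81.7% ± 0.312 and 57.5% ± 1.53. TIMP1 was 50.9% ± 0.816 of the TIMP sum after vehicle and 67.5% ± 1.79 after SCH, while TIMP3 was 24.3% ± 0.596 and 12.1% ± 0.733. MMP1 thus stood at 0.338 ± 0.00576 of the level of TIMP1 after vehicle and at 0.782 ± 0.0366 after SCH. MMP14 had 3.12 ± 0.153 times the level of TIMP2 after vehicle and 3.52 ± 0.170 times after SCH, and this was the smallest shift of these ratios.

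**Figure D2:**
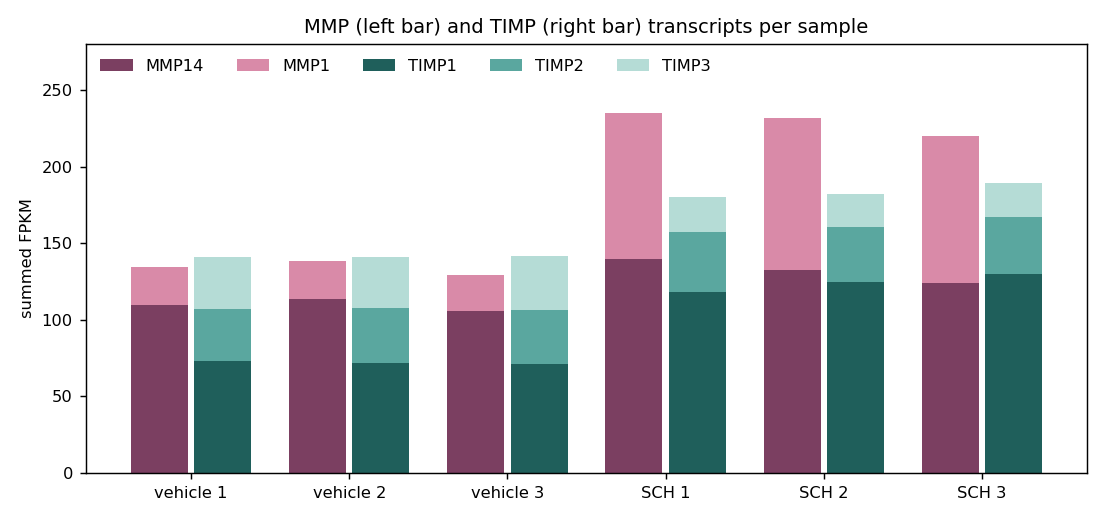
Summed FPKM of the MMPs (left bar) and TIMPs (right bar) in each of the 6 samples, stacked by gene. The 5 low MMPs, at most 0.749 FPKM together in a sample, are not drawn. The MMP bars are 130 to 138 FPKM after vehicle and 221 to 236 after SCH, and most of the added height is MMP1.

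The rest of the family, 16 further MMPs and TIMP4, was tested with edgeR over all genes. Of the 17, 7 passed the filter on low counts, and 4 rose, 1 fell and 2 were not past the threshold. The changed genes were 71.4% of those tested, beside 58.7% of all genes. The median log2 fold change of the 7 was 0.47, beside -0.0034 for all genes tested. MMP11 (stromelysin-3) rose from 28, 35 and 15 counts to 61, 43 and 53, with log2 fold change 1.01 (SE 0.27, adjusted p = 0.00226 with edgeR). MMP17, a glycosylphosphatidylinositol-anchored MMP, rose from 73, 80 and 57 counts to 149, 133 and 112, with log2 fold change 0.91 (SE 0.17, adjusted p = 5.56e-05 with edgeR), or 0.51 with limma on log2(FPKM + 1). In both genes every SCH-treated sample was above every vehicle-treated sample.

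MMP15, a transmembrane MMP like MMP14, was the most abundant of these further genes, with 5.48, 5.39 and 4.44 FPKM after vehicle and 8.84, 8.22 and 7.33 after SCH. It rose by 0.66 on the log2 scale (SE 0.09, adjusted p = 5.52e-07 with edgeR). MMP19 rose by 0.47 (SE 0.18, adjusted p = 0.0243 with edgeR) and the transmembrane MMP16 fell by 0.33 (SE 0.11, adjusted p = 0.0108 with edgeR). Both calls were lost with DESeq2 (adjusted p = 0.0897 and 0.0575), with limma on FPKM, and without SCH replicate 3. The call of MMP19 was also lost without vehicle replicate 2 or SCH replicate 2, and that of MMP16 without vehicle replicate 3 or with library size alone. The log2 fold changes of MMP19 and MMP16 were 0.49 and -0.32 with DESeq2, and 0.23 and -0.16 with limma on log2(FPKM + 1). Without vehicle replicate 2 that of MMP19 was 0.31. MMP24 had a log2 fold change of 0.31 (SE 0.31, adjusted p = 0.399 with edgeR; 0.18 without SCH replicate 2 and 0.51 without SCH replicate 3) and TIMP4 one of 0.10 (SE 0.21, adjusted p = 0.701 with edgeR). Without vehicle replicate 1 the value of TIMP4 was 0.28, and without vehicle replicate 2 it was -0.04. MMP25 had 9, 2 and 0 counts after vehicle and 6, 9 and 14 after SCH, and MMP23B had 1, 0 and 2 and 5, 4 and 0, and neither passed the filter. The other 8 had at most 7 counts over all samples, and 3 of them (MMP20, MMP26 and MMP27) had 0.

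**Figure D3:**
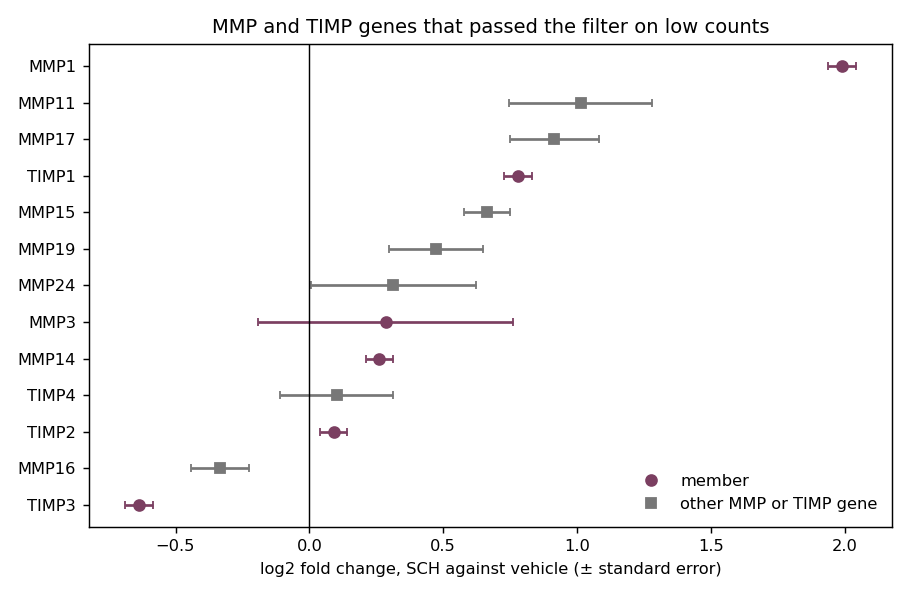
Log2 fold change of SCH against vehicle with its standard error for the 6 members (circles) and the 7 other family genes (squares) that passed the filter on low counts. MMP1 stands apart at 1.99, and TIMP3 (-0.64) and MMP16 (-0.33) are on the side of lower values.

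MMP1, MMP3, MMP10 and MMP13 lie in a cluster of 9 MMP genes on chromosome 11 that spans 435 kb, from 102520508 to 102955734. Of the 17 genes annotated there, MMP1 and MMP3 were the 2 that passed the filter. MMP7, MMP8 and MMP12 had at most 4 counts in a sample, and MMP20 and MMP27 had none. Beside the cluster, BIRC3, which encodes an inhibitor of apoptosis, rose by 1.12 on the log2 scale (SE 0.05, adjusted p = 1.75e-14 with edgeR), from 86.7 ± 3.83 to 189 ± 2.95 normalised CPM (SD, n = 3 each). BIRC2 next to it rose by 0.17 (adjusted p = 0.0124 with edgeR). The nearer gene TMEM123 on that side fell by 0.22 (adjusted p = 0.00168 with edgeR), and DCUN1D5 and DYNC2H1 on the other side fell by 0.22 and 0.25 (adjusted p = 0.00109 and 0.0240 with edgeR). The long non-coding gene AP001486.2 between MMP13 and DCUN1D5 fell by 0.74 (adjusted p = 0.00729 with edgeR). The calls of TMEM123, DCUN1D5 and DYNC2H1 were lost with library size alone, that of DYNC2H1 also with DESeq2, limma, no filter on low counts and 4 of the 6 replicates left out in turn, and that of BIRC2 without vehicle replicate 1 or 2. BIRC3 and AP001486.2, with opposite directions, kept their calls in every alternative that gave a value.

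**Figure D4:**
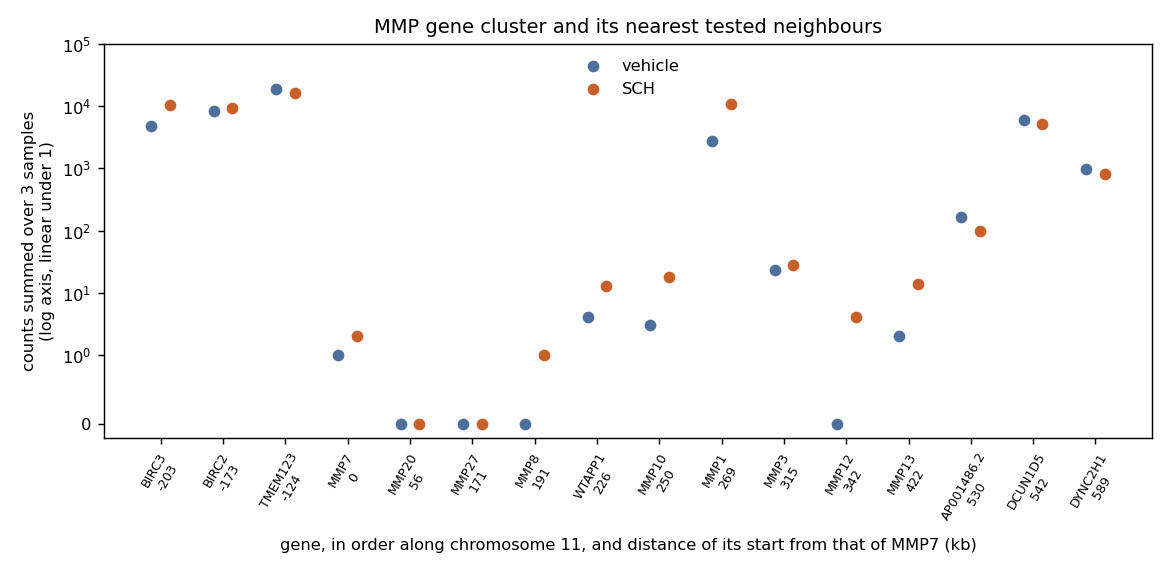
Counts summed over the 3 samples of each group, on a log axis that is linear under 1, for the MMP genes of the chromosome 11 cluster, WTAPP1 and the 3 nearest tested genes on each side, in their order, with the distance from the start of MMP7 in kb. MMP1 is the one MMP gene of the cluster with more than 28 counts in a group.

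Promoter sequence of RefSeq (GRCh38.p14, 250 bases before the gene's start) was at hand for 4 of the 10 members, MMP10, MMP14, TIMP1 and TIMP3. It was searched for TGANTCA, a looser form, with any base in the middle, of the usual site of AP-1 (the dimers of FOS and JUN proteins long known to drive MMP genes), TGACTCA or TGAGTCA. The pattern reads the same on both strands. MMP10 held the looser form as TGAATCA, 67 bases before its start, and the other 3 did not, where 6.57% of 35116 promoters hold TGANTCA. None of the 4 windows held TGACTCA or TGAGTCA. The stretch of MMP10 lies at chr11:102780672-102780712, on the minus strand, and is shown with the motif in capitals, because it was the only match among the 4.
MMP10: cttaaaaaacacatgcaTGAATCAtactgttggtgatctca
A match is a description of these letters and not evidence of binding.

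The genes that encode AP-1, ETS and related factors, 15 in the list and all tested, moved in both directions. With edgeR, 7 rose, 4 fell and 4 were not past the threshold, with a median log2 fold change of 0.05, so that 73.3% had changed where 58.7% of all tested genes had. FOS rose from 5.62 ± 0.409 to 18.8 ± 1.48 normalised CPM (SD, n = 3 each), JUNB from 48.8 ± 3.91 to 159 ± 9.23, FOSB from 4.01 ± 0.274 to 12.4 ± 0.871 and JUND from 119 ± 1.88 to 206 ± 7.35. Their log2 fold changes were 1.74, 1.70, 1.63 and 0.79 (SEs 0.11, 0.06, 0.13 and 0.05). FOSL1, which had the highest level of the FOS family here, fell from 371 ± 5.17 to 243 ± 1.94 CPM, with log2 fold change -0.61 (SE 0.05), and FOSL2, RUNX2 and the ETS factor ETV4 fell by 0.32, 0.56 and 0.31. With limma on log2(FPKM + 1) FOSB had 0.90, and with library size alone ETV4 had -0.20. Of the other genes of ETS factors in the list, named here after their values were seen, ETV1 rose by 0.30 and ETV5 by 0.16. ELF3, with 5, 6 and 7 counts after vehicle and 33, 29 and 17 after SCH, rose by 2.12. ETS2 had a log2 fold change of -0.09 and was not past the threshold (adjusted p = 0.212 with edgeR). The call of ETV5 was lost with upper quartile scaling and without vehicle replicate 1, vehicle replicate 2 or SCH replicate 1. JUN (log2 fold change 0.05, adjusted p = 0.485 with edgeR) and ETS1 (-0.02, adjusted p = 0.785 with edgeR), which fall outside the rule for named genes, were not past the threshold, though JUN was with library size alone (0.15) and without SCH replicate 3 (0.14). Genes for different AP-1 subunits thus moved in opposite directions.

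Of 13 cytokine and receptor genes of the kind that induce MMPs, 10 were tested, and 6 rose, 1 fell and 3 were not past the threshold (median log2 fold change 0.40, with 70.0% changed beside 58.7% of all genes). The chemokine gene CXCL8 rose by 1.39 on the log2 scale (SE 0.06), the interleukin-1 receptor gene IL1R1 by 0.99 (SE 0.11), IL1B by 0.72 (SE 0.09) and IL17RA by 0.63 (SE 0.08). The value of IL1R1 was 0.61 with limma on log2(FPKM + 1). TNFRSF1A, a receptor of tumor necrosis factor, fell by 0.15 (SE 0.05, adjusted p = 0.0137 with edgeR), a call that was lost with library size alone (adjusted p = 0.441 with edgeR), with no filter on low counts, and without vehicle replicate 1, SCH replicate 2 or SCH replicate 3.

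Proenzyme activation is among the steps between the transcript and an active MMP. Of 14 genes of the plasminogen system and the proprotein convertases, 12 were tested, 6 rose, 3 fell and 3 were not past the threshold (median log2 fold change 0.39, with 75.0% changed beside 58.7% of all genes). PLG, the gene of plasminogen itself, had 0 counts in every sample and was not tested. PLAT, the tissue plasminogen activator, rose from 183 ± 3.43 to 302 ± 9.50 normalised CPM (SD, n = 3 each), with log2 fold change 0.72 (SE 0.05). PLAU, the urokinase, fell from 146 ± 7.76 to 112 ± 2.49 CPM, with log2 fold change -0.38 (SE 0.05). SERPINB2 and SERPINE2, which encode inhibitors of these activators, rose by 0.78 and 0.49. FURIN, which cleaves the propeptide of MMP14 and other membrane-type MMPs, rose by 0.47 (SE 0.06), and ANXA2, a surface docking protein of plasminogen, fell by 0.32 (SE 0.05).

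Inhibitors other than TIMPs, with modulators and the clearance receptor LRP1, gave 7 tested genes of 10, of which 1 rose and 5 fell (median log2 fold change -0.96, with 85.7% changed beside 58.7% of all genes). TFPI2, a secreted serine protease inhibitor, rose from 69.7 ± 1.09 to 208 ± 13.6 normalised CPM (SD, n = 3 each), with log2 fold change 1.58 (SE 0.06, adjusted p = 1.46e-16 with edgeR). THBS1, a matrix glycoprotein that binds MMPs, fell from 705 ± 16.1 to 337 ± 6.97 CPM, with log2 fold change -1.07 (SE 0.05). LRP1, which takes up MMP and TIMP complexes, fell by 0.64 (SE 0.08), and THBS2 and the testican gene SPOCK1 fell by 0.96 and 1.99. With limma on log2(FPKM + 1), a scale on which low genes show smaller changes, the values were -0.41 for LRP1, -0.38 for THBS2 and -0.71 for SPOCK1. The membrane-anchored MMP inhibitor RECK, which falls outside the rule for named genes, had a log2 fold change of 0.16 (adjusted p = 0.214 with edgeR), or 0.27 with library size alone (adjusted p = 0.0426 with edgeR). Of the 7, 2 span more than 200 kb and both fell, and of all tested genes of such span 571 of 1021 fell (median -0.36). The 10 members span 4.48 to 117 kb, and the part of gene span in these results was not tested.

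The ADAM and ADAMTS proteases are the nearest relatives of the MMPs. Of 32 genes 20 were tested, 1 rose, 10 fell and 9 were not past the threshold (median log2 fold change -0.32). The changed genes were 55% of those tested, beside 58.7% of all genes tested. ADAMTS12 fell by 0.96 (SE 0.06), from 87.5 ± 3.34 to 44.9 ± 1.14 normalised CPM (SD, n = 3 each), ADAM22 by 0.89 (SE 0.14), ADAMTS14 by 0.70 (SE 0.15) and ADAMTS1, which cleaves proteoglycans, by 0.53 (SE 0.06). With limma on log2(FPKM + 1) the values were -0.30 for ADAM22 and -0.35 for ADAMTS14. ADAM17, the sheddase of tumor necrosis factor and a target of TIMP3, rose by 0.16 (SE 0.07, adjusted p = 0.0389 with edgeR), a call that was lost with DESeq2 (adjusted p = 0.0703), with upper quartile scaling, with limma on FPKM, and without either of vehicle replicates 1 and 2 or SCH replicates 1 and 3. Of the 20, 6 span more than 200 kb, and 4 of these fell.

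Of the matrix proteins that MMPs cleave, 15 of 23 were tested, 4 rose, 9 fell and 2 were not past the threshold (median log2 fold change -0.29, with 86.7% changed beside 58.7% of all genes). COL4A1 and COL4A2, the type IV collagen chains of basement membranes, fell by 0.77 and 0.98 (SEs 0.07 and 0.06), COL5A1 by 0.95 (SE 0.06) and the glycoprotein tenascin-C (TNC) by 0.97 (SE 0.06). COL1A1, a substrate of MMP1, rose by 0.76 (SE 0.14), from 4.89 ± 0.498 to 8.28 ± 0.499 normalised CPM (SD, n = 3 each), and COL6A1 by 0.57 (SE 0.09). With limma on log2(FPKM + 1) the value of COL1A1 was 0.30. LAMB3, which encodes a laminin chain, rose by 0.41 (SE 0.05). LAMA3, which encodes another laminin chain and is named here after its values were seen, fell by 0.59, from 72.7 to 48.2 normalised CPM (group means, n = 3 each). Of the 15, 3 span more than 200 kb and all 3 fell.

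Among 13 surface proteins that hold or signal to MMPs, all tested, 4 rose, 3 fell and 6 were not past the threshold (median log2 fold change 0.03, with 53.8% changed beside 58.7% of all genes). The syndecan gene SDC4 rose by 0.88 (SE 0.05), the integrin genes ITGAV and ITGA2, the latter for a chain of the collagen receptor, by 0.68 and 0.32 (SEs 0.06 and 0.05), and BSG, which encodes the MMP inducer EMMPRIN, by 0.14 (SE 0.05, adjusted p = 0.0205 with edgeR). The call of BSG was lost with upper quartile scaling (adjusted p = 0.0687 with edgeR), with limma on FPKM and without vehicle replicate 3. Its value was 0.08 without vehicle replicate 3, 0.15 with limma on log2(FPKM + 1) and 0.24 with library size alone. CAV1, the caveolin of the membrane domains in which MMP14 is taken up, fell by 1.17 (SE 0.06), and SDC1 fell by 0.67 (SE 0.06). CD44, a docking receptor of MMP9 and MMP14, had a log2 fold change of 0.03 (adjusted p = 0.547 with edgeR), or 0.14 with library size alone (adjusted p = 0.0112 with edgeR).

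**Figure D5:**
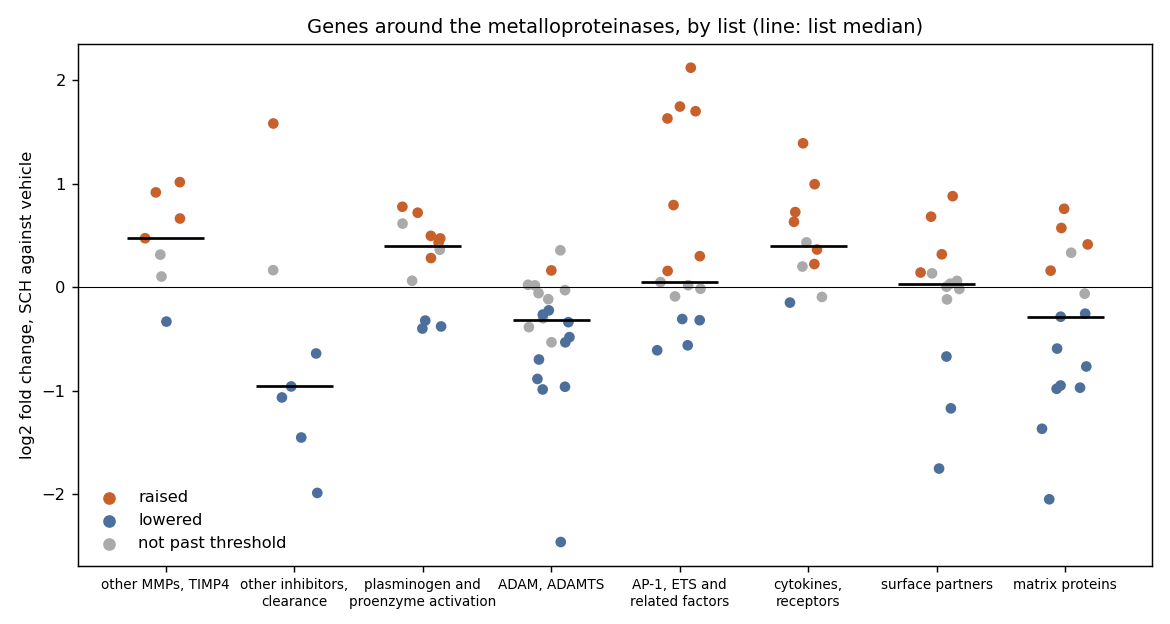
Log2 fold change of SCH against vehicle for each tested gene of the 8 lists around the members, coloured by whether it was raised, lowered or not past an adjusted p of 0.05 (edgeR), with a line at the list's median. The medians run from -0.96 (other inhibitors and clearance) to 0.47 (other MMPs and TIMP4), and each list holds genes on both sides of 0.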

How the data were processed

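The deposited tables hold unnormalized counts of reads on each gene, and FPKM values, for the 6 samples. Per the labels, the submitters' processing notes name CASAVA 1.8, HISAT2 2.0.5, featureCounts 1.5.0-p3 and DESeq2 1.20.0 with GRCh38, and the strand setting is not given in the sources used here. Within a sample the FPKM were proportional to the count divided by gene length. Their scale was not that of the total counts on genes. Relative to it, the FPKM stood at 1.006, 1.008 and 0.995 after vehicle and at 0.941, 0.937 and 0.937 after SCH. Coordinates are those of the deposited tables, and 58724 of 58735 genes have the same ends in GENCODE 29.

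Counts were analysed with edgeR 4.0.16 in R 4.3.3 (TMM, filterByExpr, quasi-likelihood fit and test without covariates, Benjamini-Hochberg adjustment over all 14736 genes kept, threshold 0.05). Each SE is the size of the log2 fold change divided by the root of the F statistic. Lists were written from general knowledge. The members, the lists and the rule for named genes were chosen with earlier results of these data known. That rule took all members, family genes with at least 10 counts in all, up to 4 genes per direction of each other list (mean count of at least 50, past the threshold, groups apart), markers, and genes in and beside the chromosome 11 cluster. Of the genes it took, 2 are not reported here by name, but remain in the counts of their lists. Nothing says which samples came from separate cultures beyond the submitters' calling them biological repeats. No sample was a copy of another, since the chi-square between replicates, over its degrees of freedom, was 2.12 to 5.75. Limma 3.58.1 and DESeq2 1.42.0 served for alternatives, and Python 3.11.15 for tables.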

Additional observations from a re-analysis of the deposited data

How the results depend on the processing

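The alternatives were RLE, upper quartile and library size scaling, no filter or at least 10 counts in every sample, DESeq2, limma on log2 FPKM with a pseudocount of 1 or 0.1, a replicate block and each replicate left out. MMP1, MMP14, TIMP1, TIMP2 and TIMP3 kept their direction in all of them. MMP3 went to -0.076 and TIMP4 to -0.041 without vehicle replicate 2, and otherwise up to 0.66 and 0.28. The log2 fold change of ETS1, near 0, was 0.087 with library size alone, 0.00179 with no filter on low counts, and -0.032 to 0.00666 without one replicate. Of 51 named genes of the lists, 45 kept direction and side of the threshold and 6 did not (MMP16, MMP19, TIMP4, ADAM17, TNFRSF1A and BSG), and the cause was not tested. For MMP11 and MMP24 this covers every alternative but limma. Changed genes numbered 8650, and 7809 to 8489 without one replicate. With library size alone 62.6% of the changed genes were raised, in place of 49.9%, and the median of all genes was 0.099. Asking also for a change of 1 or more on the log2 scale left 1292, by construction. Of the further MMPs and TIMP4, 5 were changed, 3 with DESeq2, 2 with limma at either pseudocount, and 3 to 5 without one replicate. Of the ADAM and ADAMTS genes 11 were changed, and 7 with limma at either pseudocount. With the replicate block 8705 genes were changed, and samples with the same number did not deviate together (correlations 0.05, -0.02 and 0.02). These correlations give no sign of pairs, but cannot tell whether samples with the same number were set up together. For the 5 members with at most 11 counts in a sample, depth limits what can be said.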

Other observations

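Among 10713 other tested genes whose mean count was 100 or more, those whose log2 CPM followed that of MMP14, the member with the most counts, most closely over the 6 samples were PLXNB2 (a plexin receptor, Pearson's r 0.999), VPS26B (a retromer subunit, 0.999) and PRDM4 (0.998). Their log2 fold changes were 0.38, 0.26 and 0.20, beside 0.26 for MMP14. The 6 points share libraries and fall into 2 treatment groups, so the likeness is a description, and 36 of these genes reached at least 0.99.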
